A study of Caenorhabditis elegans with 48 samples.

Results

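The let-7 sisters of Caenorhabditis elegans are miR-48, miR-84 and miR-241, and both strands of each precursor were taken, which gave 6 strands (the -5p and the -3p strand of each) of the 437 miRNA strands listed. The members were taken by name, with no threshold on a measured value, although results of these data were already known when this set was chosen. All 6 reached the required mean count of 10 across the 48 libraries and so were among the 246 strands tested. Small RNA was sequenced from whole larvae of 2 strains grown in liquid culture on OP50 bacteria and sampled each hour from 0 to 23 h. Per the study, the cultures were started with synchronized larvae of the first larval stage (L1). The lin-28(0) animals carried lin-28(xe192), a deletion of the locus made by genome editing, and the WT animals were wild type at lin-28. Both strains carried the xeSi312 reporter transgene, in which the eft-3 promoter drives luciferase fused to GFP. Each genotype was a single culture with 24 libraries, 1 per hour, so p-values of the curve fits measure the scatter of the hours of 1 culture around a smooth curve. No p-value given here measures the spread between cultures. The study states that animals in this culture developed more slowly than on plates. lin-28 mRNA was not measured in these libraries, so the deletion could not be checked here.

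miRNAs are cut from hairpin precursors, and usually one strand, the guide, is kept in Argonaute while the passenger strand is lost. The sisters share the seed of let-7, the base stretch that pairs with targets, and in C. elegans they repress hbl-1, a transcription factor gene that keeps skin cells at an early larval fate. The LIN-28 protein binds RNA and holds back the processing of let-7 itself. The genes mir-48 and mir-241 are neighbours on chromosome V, while mir-84 lies on the X chromosome, as does let-7.

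Library totals ranged over 2996370 to 15317364 miRNA reads in lin-28(0) and over 2315421 to 20757531 in WT. Levels are given as CPM, a strand's counts scaled to a total of 1e+06 miRNA reads in its library, which states a proportion and says nothing of the quantity in an animal. The limit that a count of 0 allows, 3 counts, corresponds to at most 1.00 CPM in lin-28(0) and 1.30 CPM in WT, and intervals and limits cover counting error only. Because whole larvae were sampled, fewer cells with a strand and less of it in each cell cannot be told apart.

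The sisters differed widely in level, and this comparison between strands is on the scale of reads, which also carries the cloning preference of each sequence. Averaged over all libraries, miR-48-5p had 5006 CPM and ranked 28 of 437, and miR-84-5p had 2722 CPM and ranked 33. The miR-241 precursor was read mainly from its -3p strand, which averaged 491 CPM (rank 67), against 39.6 CPM for miR-241-5p (rank 142). The study, which calls the more abundant strand the guide, modelled miR-241-5p as the guide in its separate time course on plates. The cause of this disagreement was not tested. miR-84-3p averaged 124 CPM and miR-48-3p 34.6 CPM. All 6 strands were more abundant at the end of the series than at its start in both genotypes. The mean of 20 to 23 h over that of 0 to 3 h was 314-fold in lin-28(0) and 432-fold in WT for miR-48-5p. For miR-84-5p it was 17.0-fold in lin-28(0) and 14.1-fold in WT.

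miR-48-5p, the most abundant sister, accumulated in 2 rises with a plateau between them. Its lowest, median and highest levels over the 24 hours were 28.8, 1347 and 22984 CPM in lin-28(0), against 29.4, 1072 and 22162 CPM in WT. The first rise began between 7 and 8 h in both genotypes. At 7 h it stood at 62.8 CPM in lin-28(0) and 49.4 CPM in WT, and at 8 h at 141 CPM in lin-28(0) and 144 CPM in WT. At 9, 10 and 11 h it stood at 372, 766 and 1183 CPM in lin-28(0), against 536, 1063 and 1348 CPM in WT. It was thus lower in lin-28(0) at all 4 hours of 8 to 11 h, by differences of log2(CPM + 1) between -0.52 and -0.03. The plateau of 12 to 15 h averaged 1659 ± 147 CPM in lin-28(0) and 1312 ± 335 CPM in WT (SD over 4 hours). The genotypes lay further apart in the second rise. The 4 libraries of 16, 17, 18 and 19 h held 2040, 2761, 5509 and 7823 CPM in lin-28(0), against 3429, 9511, 15965 and 19021 CPM in WT. Each lin-28(0) library lay below the WT library of its hour, although the ranges of the window overlapped because both climbed through it. At 22 and 23 h the levels were 22133 and 22984 CPM in lin-28(0) and 22162 and 21081 CPM in WT.

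**Figure D1:**
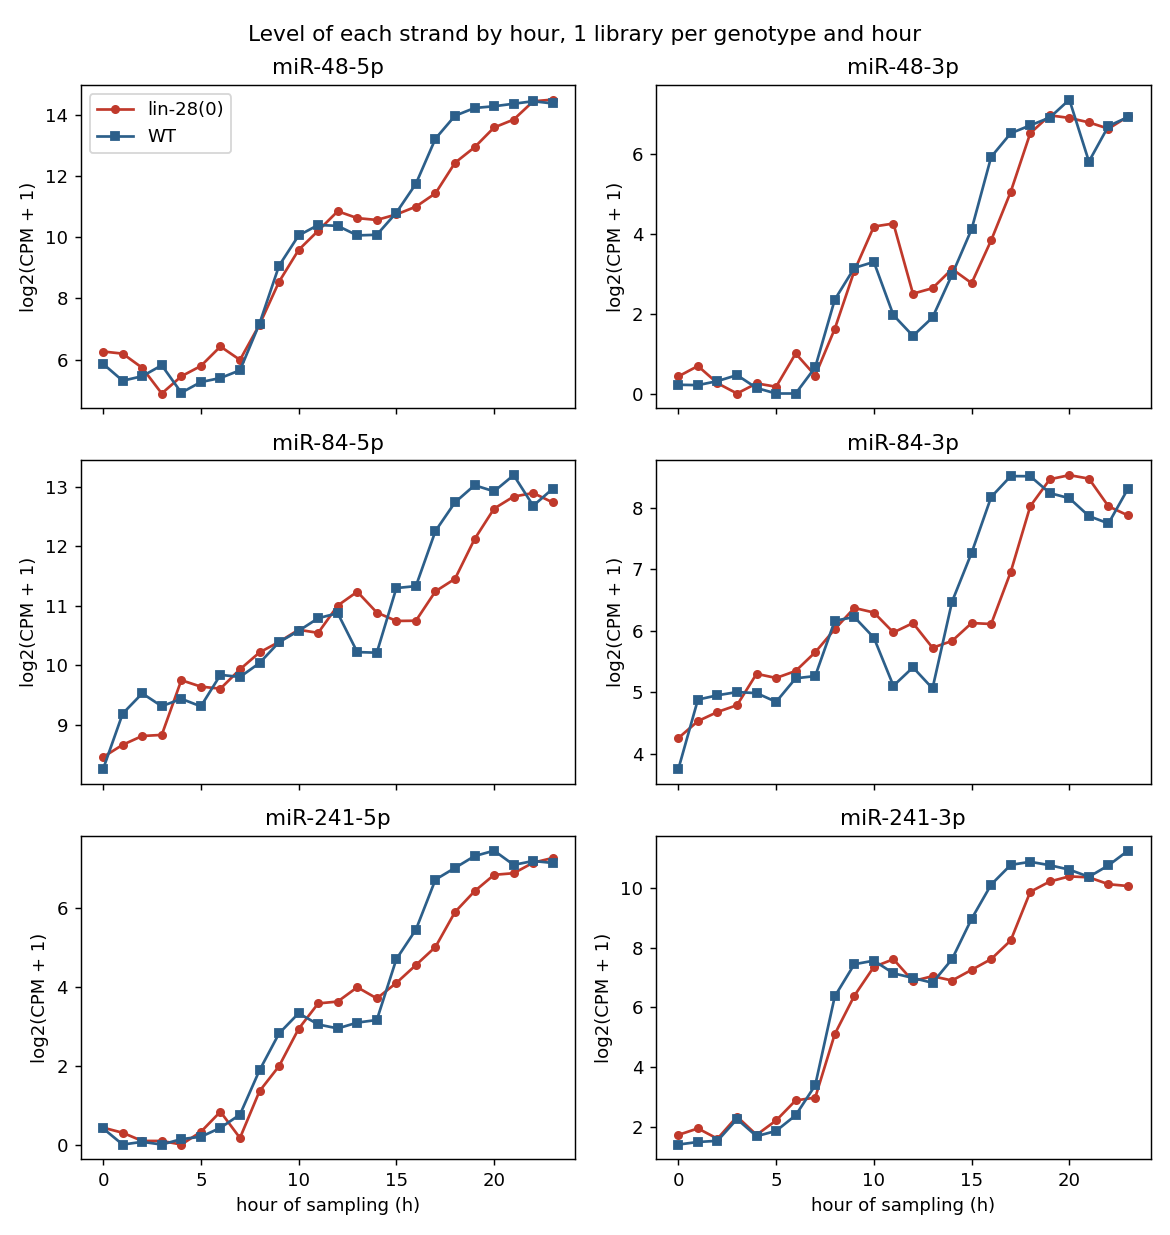
The panels plot log2(CPM + 1) of each strand (vertical axis) against the hour of sampling (horizontal axis), with circles for lin-28(0) and squares for WT, 1 library per point. miR-48 and miR-241 rise near 8 to 11 h and again after 14 h, and the second rise lies to the right in lin-28(0), as for miR-48-5p with 2761 CPM in lin-28(0) against 9511 CPM in WT at 17 h.

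miR-84-5p climbed more gradually and from a higher start. Its lowest, median and highest levels were 350, 1632 and 7638 CPM in lin-28(0), against 304, 1434 and 9408 CPM in WT. Over 4 to 7 h it averaged 852 ± 89 CPM in lin-28(0) and 782 ± 142 CPM in WT, and over 8 to 11 h 1393 ± 162 CPM in lin-28(0) and 1422 ± 305 CPM in WT. At 13 and 14 h it was higher in lin-28(0), with 2413 and 1893 CPM, against 1192 and 1184 CPM in WT, where it dipped. At 16, 17, 18 and 19 h the order was turned, with 1720, 2425, 2806 and 4460 CPM in lin-28(0), against 2577, 4904, 6848 and 8361 CPM in WT. The last window averaged 7044 ± 557 CPM in lin-28(0) and 7952 ± 1160 CPM in WT (SD over 4 hours).

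miR-241-5p was at the edge of detection until 7 h in both genotypes, with at most 7 counts in any library. It had 0 counts in 1 lin-28(0) library (4 h) and in 2 WT libraries (1 and 3 h), and a count of 0 allows up to 0.288 CPM in the first and up to 0.235 and 0.377 CPM in the others. At 8, 9, 10 and 11 h it had 1.56, 2.97, 6.64 and 11.0 CPM in lin-28(0), against 2.69, 6.05, 9.06 and 7.26 CPM in WT, so it was lower in lin-28(0) at 3 of these 4 hours. At 16, 17, 18 and 19 h it had 22.5, 31.3, 58.6 and 84.9 CPM in lin-28(0), against 42.7, 104, 128 and 158 CPM in WT. All 4 lin-28(0) values were below the WT value of the same hour. The -3p strand of this precursor was more abundant and also below WT at each of these hours. At 16, 17, 18 and 19 h it had 195, 302, 936 and 1191 CPM in lin-28(0), against 1108, 1752, 1882 and 1739 CPM in WT. From 17 to 19 h miR-241-5p still climbed in WT, whereas miR-241-3p was no higher at 19 h than at 17 h. miR-241-3p was the only sister strand below WT in each of the last 4 hours, with 1211 ± 136 CPM in lin-28(0) and 1767 ± 478 CPM in WT. The test of that window gave an adjusted p of 0.598 in edgeR.

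Which strands differed between genotypes was tested on the counts of all 246 strands with edgeR's quasi-likelihood test of a smooth curve per genotype (6 spline components), with Benjamini-Hochberg adjustment over the 246 and a threshold of 0.01. Averaged over the 24 hours, 0 of the 6 sisters passed, against 56 of all 246 strands (22.8%). The average log2 differences of lin-28(0) minus WT were -0.23 for miR-48-5p (adjusted p = 0.208), -0.23 for miR-84-5p (0.0181) and 0.09 for miR-241-5p (0.620). The sign for miR-241-5p is not settled, since the fit placed it at 1.98 at 0 to 3 h, where no library had more than 3 counts, the observed mean difference of log2(CPM + 1) was -0.20 and 12 spline components gave -0.0838. Those of the other strands were -0.57 for miR-241-3p (0.0489), -0.11 for miR-84-3p (0.453) and 0.10 for miR-48-3p (0.861). Each sister strand had the higher level in lin-28(0) at 9 to 14 of the 24 hours. Any difference over time, tested on the whole curve, passed for 3 of 6 sisters, miR-84-5p (edgeR adjusted p = 0.00206), miR-84-3p (0.00369) and miR-241-5p (0.00786), beside 69 of 246 strands (28%).

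Sisters passed in 1 of 6 windows of 4 hours. At 16 to 19 h, 5 of the 6 sisters were lower in lin-28(0), while 11 of all 246 strands were lower (4.47%) and 17 passed in either direction (6.91%). miR-48-5p was lower than in WT by 1.15 on the log2 scale (SE 0.29, edgeR adjusted p = 0.00553), miR-84-5p by 0.81 (SE 0.16, adjusted p = 2.7e-04) and miR-241-5p by 1.18 (SE 0.25, adjusted p = 9.5e-04). Among the -3p strands, miR-241-3p was lower by 1.61 (SE 0.43, adjusted p = 0.00785) and miR-84-3p by 0.99 (SE 0.23, adjusted p = 0.00242). miR-48-3p stood at -1.08 and did not pass (adjusted p = 0.206). The median over the 6 sisters was -1.11, beside 0.01 over all tested strands. The 3 -5p sisters and miR-241-3p were lower in lin-28(0) at each of the 4 hours, as were 29 of the 246 strands (11.8%), and miR-48-3p and miR-84-3p were lower at 3 of 4. These calls depended on the fit. With 4 spline components none of the 5 passed (adjusted p between 0.0141 and 0.262), and with limma miR-48-5p (0.0218), miR-241-5p (0.0251) and miR-241-3p (0.0218) did not, all with the same direction. When the 3 libraries of 1 to 3 h were left out of the lin-28(0) series, miR-48-5p (adjusted p = 0.0111) and miR-241-3p (adjusted p = 0.0119) no longer passed, with log2 differences of -1.11 and -1.52. With the sampling hour as a replicate block the differences of the window were -1.38 for miR-48-5p, -0.99 for miR-84-5p, -1.21 for miR-241-5p and -1.69 for miR-241-3p, all past the threshold, and miR-84-3p did not pass (-1.01, adjusted p = 0.0557). Over the longer window of 16 to 23 h, 2 of 6 sisters passed, miR-84-5p at -0.62 (edgeR adjusted p = 4.6e-04) and miR-241-5p at -0.74 (0.00933), beside 19 of 246 strands (7.72%).

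In the other 5 windows 0 of the 6 sisters passed in either direction. All 246 strands gave 45 calls at 0 to 3 h (18.3%), 10 at 4 to 7 h (4.07%), 10 at 8 to 11 h (4.07%), 8 at 12 to 15 h (3.25%) and 23 at 20 to 23 h (9.35%). At 8 to 11 h the fit with 6 components placed miR-48-5p above 0. Its observed mean difference of log2(CPM + 1) there was -0.30 and 12 spline components gave -0.17, so the fitted sign is not settled. Over 20 to 23 h miR-48-5p averaged 17998 ± 5367 CPM in lin-28(0) and 20992 ± 973 CPM in WT, and miR-241-5p 131 ± 19 CPM in lin-28(0) and 149 ± 17 CPM in WT (SD over 4 hours).

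**Figure D2:**
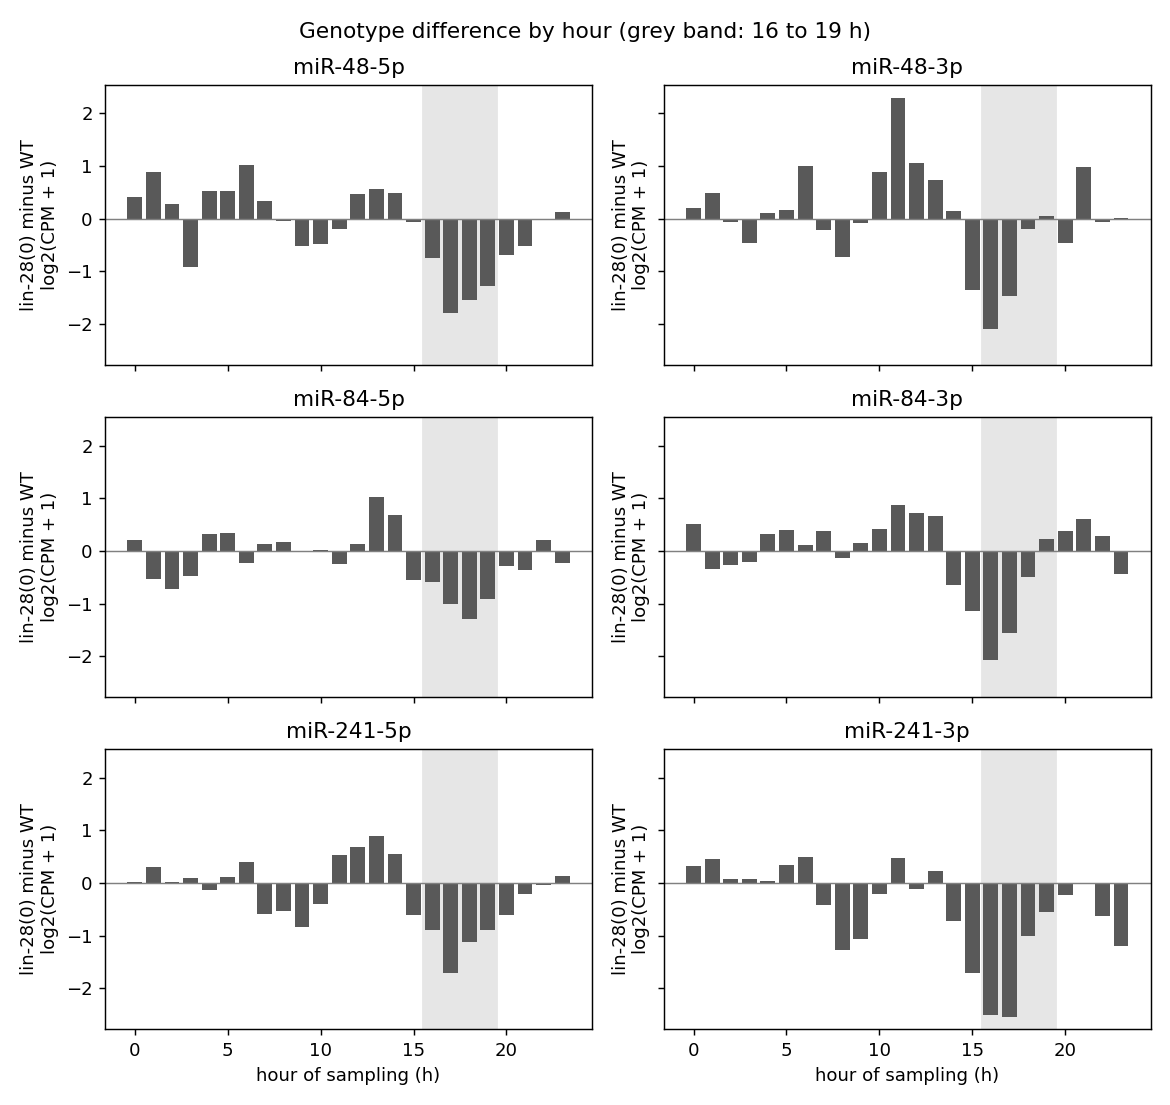
Bars give the difference of log2(CPM + 1), lin-28(0) minus WT (vertical axis), at each hour of sampling (horizontal axis), 1 pair of libraries per bar, and the grey band marks 16 to 19 h. The bars of miR-48-5p in the band are -0.75, -1.78, -1.53 and -1.28, and that of 23 h is 0.12.

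The steps between windows placed the second rise later in lin-28(0). From 12 to 15 h to 16 to 19 h the mean level of miR-48-5p rose 2.73-fold in lin-28(0) and 9.14-fold in WT, and from there to 20 to 23 h it rose 3.97-fold in lin-28(0) and 1.75-fold in WT. miR-241-5p rose 3.62-fold in lin-28(0) and 9.19-fold in WT over the first of these steps, and 2.66-fold in lin-28(0) and 1.37-fold in WT over the other. The difference of the earlier step between genotypes passed for miR-84-5p (-0.71 on the log2 scale, SE 0.17) and for miR-241-5p (-1.29, SE 0.31), both at an edgeR adjusted p of 0.00927, and 5 of all 246 strands passed (2.03%). These 2 calls lay close to the threshold. Of 15 alternatives, 8 lost the call of miR-84-5p and 9 that of miR-241-5p. Both were lost with total counts, limma, no count minimum, 4 spline components or lin-28(0) set 2 h earlier, among others. Both were also lost with lin-28(0) left out at 1 to 3 h (-0.70 for miR-84-5p and -1.20 for miR-241-5p). Scaling time in lin-28(0) by the tempo factor given further on gave -0.25 for miR-84-5p (edgeR adjusted p = 0.799) and -0.81 for miR-241-5p (0.525). Because a curve of 6 components can smooth such rises, one of 12 components was added after the data were seen. With it the first rise, the step into 8 to 11 h, passed in 6 of 6 sisters in both genotypes, beside 36 of 246 strands with a rise in lin-28(0) (14.6%) and 37 in WT (15%). All 6 were then lower in lin-28(0) at 16 to 19 h, among 14 of 246 strands (5.69%). The difference of the step into 16 to 19 h passed for 5 of 6 sisters, among 27 of 246 strands (11%), with -1.67 for miR-48-5p (adjusted p = 9.0e-07), -1.33 for miR-84-5p (2.6e-06) and -1.68 for miR-241-5p (9.8e-06). The exception was miR-48-3p (-1.41, adjusted p = 0.0115). The difference of the step into 20 to 23 h then had the opposite sign, 0.96 for miR-48-5p (adjusted p = 0.00143), 0.70 for miR-84-5p (0.00588) and 0.92 for miR-241-5p (0.00547), while 34 of 246 strands passed (13.8%).

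Timing was also read without a test. The hour at which a strand first reached 50% of its mean of 20 to 23 h was 20 h in lin-28(0) and 18 h in WT for miR-48-5p. It was 19 h in lin-28(0) and 17 h in WT for both miR-84-5p and miR-241-5p. For miR-241-3p and miR-48-3p it was 18 h in lin-28(0) and 16 h in WT, and for miR-84-3p 18 h in lin-28(0) and 15 h in WT. Each of the 6 strands thus crossed this level 2 or 3 hours later in lin-28(0). The largest rise within 1 hour up to 12 h ended at 9 h in both genotypes for miR-48-5p and at 8 h in both for both miR-241 strands. It ended later in lin-28(0) for the other 3 strands, at 9 h against 8 h in WT for miR-48-3p and at 4 h against 1 h in WT for both miR-84 strands. The WT hour of the miR-84 strands rests on 1 low library, 0 h, with 304 CPM of miR-84-5p and 12.5 CPM of miR-84-3p. Their WT medians over 0 to 3 h were 607 and 29.2 CPM.

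Whole profiles were then aligned between genotypes, by a constant delay or by a tempo factor that multiplies time in lin-28(0). Over all 246 strands the best delay of lin-28(0) was 1.5 h and the best tempo factor 1.12. The sisters' own values were 0.75 h and 1.09 for miR-48-5p, 1 h and 1.09 for miR-241-5p, 0.75 h and 1.11 for miR-241-3p, and 1.25 h and 1.11 for miR-48-3p. The miR-84 strands had the larger values, 2.25 h and 1.14 for miR-84-5p and 2.25 h and 1.17 for miR-84-3p. The quartiles over single strands were 0.25 and 2.25 h, and 1.02 and 1.19, so all 6 sisters lay within that range. For let-7-5p the best delay was 0.25 h and the factor 1.02.

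After division of the hours of lin-28(0) by 1.12, with hours up to 20 h kept, the difference at 16 to 19 h was -0.02 for miR-48-5p, -0.06 for miR-84-5p, -0.10 for miR-241-5p, -0.05 for miR-84-3p and -0.46 for miR-241-3p. None of the 6 sisters passed then, and 7 of 248 strands did (2.82%). Over the same hours without scaling, the values were -1.37 for miR-48-5p, -1.02 for miR-84-5p, -1.25 for miR-241-5p, -1.01 for miR-84-3p and -1.74 for miR-241-3p, all past the threshold. The tempo factor was estimated from these same libraries, so the scaled values are a description of how far one common factor removes the difference of that window. Averaged over the kept hours, the scaled fit placed miR-48-5p higher in lin-28(0), past the threshold. Since each genotype was 1 culture, a difference in growth between the cultures and the deletion of lin-28 cannot be told apart here.

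**Figure D3:**
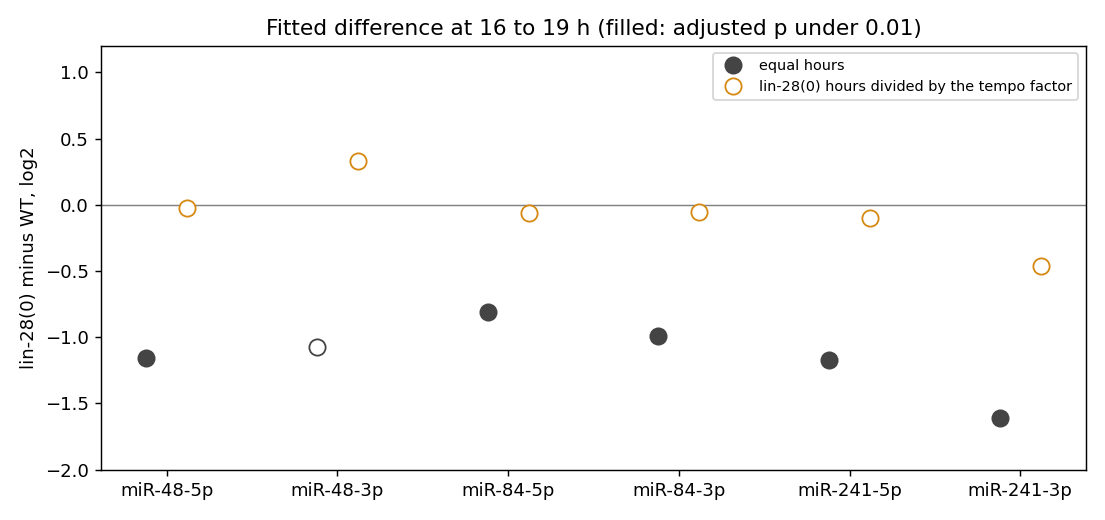
Points give the fitted log2 difference at 16 to 19 h, lin-28(0) minus WT (vertical axis), for each strand (horizontal axis), at equal hours (dark) and after scaling of time in lin-28(0) (orange), and filled points passed an adjusted p of 0.01. At equal hours the points lie between -1.61 and -0.81, and after scaling between -0.46 and 0.33 with none filled.

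The sisters stood apart from let-7-5p, the guide of the founding member of the family. let-7-5p was higher in lin-28(0) at all 24 hours, with a lowest, median and highest level of 671, 28310 and 47208 CPM in lin-28(0), against 7.39, 86.3 and 1892 CPM in WT. The mean log2 difference over the hours was 7.06 for let-7-5p, and that of a sister minus that of let-7-5p was -7.19 for miR-48-5p, -7.23 for miR-84-5p and -7.26 for miR-241-5p, below 0 at 24 of 24 hours each. A two-sided sign-flip permutation test over the hours gave an adjusted p of 1e-05 for all 6 sisters, the smallest that 100000 resamples can give, and all 245 other strands passed (100%), so this sets let-7-5p apart from every strand and not the sisters. The test treats the 24 hourly differences as independent, which neighbouring hours of 1 culture need not be. Among themselves the -5p sisters showed no difference past the threshold in this test. The genotype difference of miR-84-5p minus that of miR-48-5p was -0.05 ± 0.56 (SD over hours, adjusted p = 0.872, permutation), and that of miR-241-5p minus that of miR-48-5p was -0.07 ± 0.47 (adjusted p = 0.688, permutation), while 9 of 245 strands differed from miR-48-5p (3.67%).

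The makeup of the family's reads changed accordingly. Family reads were those of let-7-5p, the 3 sisters, miR-793, miR-794-5p and miR-795-5p. The sisters made up 19.7% of them in lin-28(0) and 32.2% in WT at 0 h. The largest part then was miR-793, miR-794-5p and miR-795-5p together, with 49.3% in lin-28(0) and 67.0% in WT. By 23 h these held 3.33% in lin-28(0) and 9.85% in WT. At 11 h the sisters made up 6.35% in lin-28(0) and 62.1% in WT, and at 23 h 41.7% in lin-28(0) and 84.7% in WT. Their summed level was nearly the same at 23 h, with 29979 CPM in lin-28(0) and 29254 CPM in WT, while the family as a whole had 71922 CPM in lin-28(0) and 34549 CPM in WT. Among the sisters, miR-84-5p made up 82.1% at 0 h in lin-28(0) and 84.1% in WT. From 16 h on, miR-48-5p exceeded miR-84-5p in both genotypes, and at 23 h it made up 76.7% of the sisters' reads in lin-28(0) and 72.1% in WT. miR-241-5p stayed below 1% of them.

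**Figure D4:**
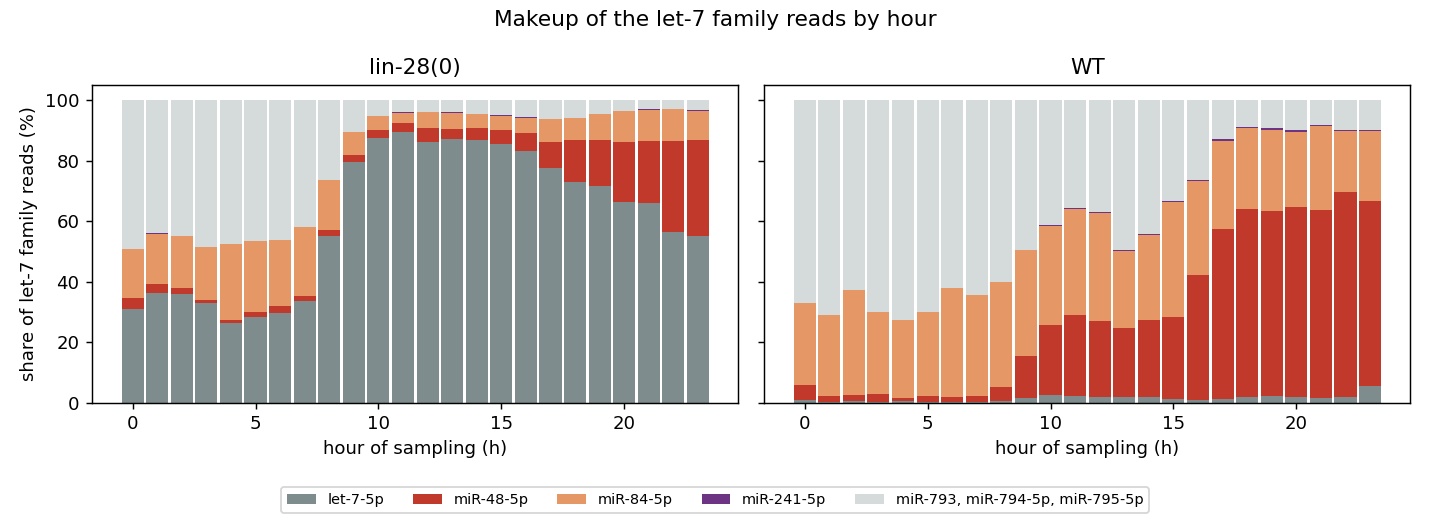
Stacked bars give the share of let-7 family reads in percent (vertical axis) of each member at each hour of sampling (horizontal axis), lin-28(0) on the left and WT on the right, 1 library per bar. At 0 h miR-793, miR-794-5p and miR-795-5p together take 49.3% in lin-28(0) and 67.0% in WT. let-7-5p takes 89.6% in lin-28(0) and 2.21% in WT at 11 h, and miR-48-5p grows to 32.0% in lin-28(0) and 61.0% in WT at 23 h.

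The -3p strands of all 3 precursors fell back between the 2 rises. miR-241-3p had at most 195 CPM in lin-28(0) and 188 CPM in WT within 8 to 11 h. Within 12 to 15 h its lowest levels were 117 CPM in lin-28(0) and 112 CPM in WT. miR-48-3p peaked at 18.2 CPM at 11 h in lin-28(0) and at 8.85 CPM at 10 h in WT. It then dropped to 4.67 CPM in lin-28(0) and 1.72 CPM in WT at 12 h, before it climbed to 125 CPM at 19 h in lin-28(0) and 165 CPM at 20 h in WT. miR-84-3p reached a first maximum at 9 h, with 81.7 CPM in lin-28(0) and 73.7 CPM in WT, and its highest level, 368 CPM, at 20 h in lin-28(0), against 364 CPM at 17 h in WT. Over 8 to 23 h, 0.254 to 2.25 miR-48-3p reads were counted per 100 miR-48-5p reads in lin-28(0), and 0.130 to 2.86 in WT. For miR-84 the -3p reads were 2.15 to 9.24 per 100 -5p reads in lin-28(0) and 1.88 to 11.2 in WT. miR-241 was the reverse, with 7.00 to 27.9 miR-241-3p reads per miR-241-5p read in lin-28(0) and 9.00 to 30.3 in WT, and the -3p was the more abundant strand in all 23 lin-28(0) and 22 WT libraries with a -5p read.

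**Figure D5:**
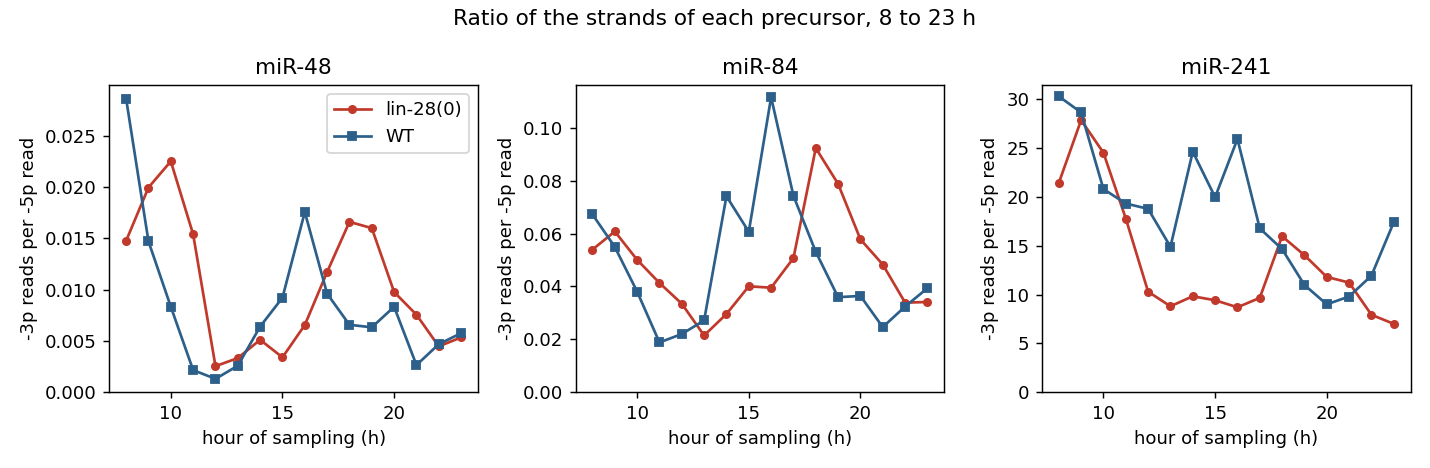
Lines give -3p reads per -5p read of each precursor (vertical axis, from 0) against the hour of sampling from 8 h (horizontal axis), circles for lin-28(0) and squares for WT, 1 library per point. For miR-84 the ratio peaks at 0.0924 at 18 h in lin-28(0) and at 0.112 at 16 h in WT, and for miR-241 it lies above 7 in both genotypes.

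Whether the strand ratio differed between genotypes was tested over the hours by a two-sided sign-flip permutation of log2(CPM + 1) ratios, adjusted over 84 precursors. This test too treats the hours as independent. None of the 3 sisters passed, against 7 of 84 precursors (8.33%). The log2 ratio of -3p to -5p differed by 0.17 ± 0.91 for miR-48 (SD over 24 hours, permutation adjusted p = 0.547), by 0.12 ± 0.66 for miR-84 (0.547) and by -0.28 ± 0.61 for miR-241 (0.126). The ratio of miR-241 was uneven over the series. At each hour from 12 to 17 h its ratio was lower in lin-28(0), and over 12 to 15 h, 9.52 miR-241-3p reads were counted per miR-241-5p read in lin-28(0) (range 8.80 to 10.3) and 19.8 in WT (range 14.9 to 24.6). That stretch was chosen after its values were seen and was not tested.

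A cosine of 9 h on a linear trend from 5 h on described the repeated rises. In lin-28(0) it passed for miR-48-5p, miR-48-3p, miR-241-5p and miR-241-3p, 4 of 6 sisters, beside 46 of 246 strands (18.7%). In WT it passed for these 4 and miR-84-3p, beside 54 of 246 strands (22%). The amplitude on the log2 scale was 0.78 in lin-28(0) and 0.95 in WT for miR-48-5p, and 1.35 in lin-28(0) and 1.57 in WT for miR-48-3p (edgeR adjusted p between 4.4e-05 and 1.6e-04). The rhythm differed between genotypes for miR-48-5p (edgeR adjusted p = 0.00315), miR-48-3p (0.00211), miR-241-5p (0.00110) and miR-84-3p (0.00739), beside 35 of 246 strands (14.2%). Fitted peaks were later in lin-28(0), at 20.4 h against 19.1 h in WT for miR-48-5p and at 19.9 h against 18.1 h in WT for miR-241-5p. With only 2 rises in the series, the period could not be estimated, and these calls depended on the period and on the trend. With a period of 8 h, miR-48-5p and miR-241-5p did not pass in lin-28(0) (edgeR adjusted p = 0.0416 each), nor did miR-84-3p in WT (0.0306). A period of 10 h lost miR-241-5p in lin-28(0) (0.0485), and miR-48-5p (0.0186) and miR-241-3p (0.0808) in WT. It gained miR-84-5p (0.00702) and miR-84-3p (4.5e-04) in lin-28(0). On a quadratic trend, 6 of 6 sisters passed in lin-28(0), beside 68 of 246 strands (27.6%), and 6 of 6 in WT, beside 66 (26.8%). The rhythm difference then also passed for miR-241-3p (edgeR adjusted p = 0.00139), which made 5 of 6, beside 42 strands (17.1%).

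The strands whose profiles were most like those of the -5p sisters were mostly other sisters. Over the 48 libraries and the 179 candidates averaging 10 CPM or more, miR-48-5p was closest to miR-241-5p, from the neighbouring gene (Pearson r of log2(CPM + 1) = 0.990). It was followed by miR-241-3p at 0.971, miR-48-3p at 0.953, miR-84-5p at 0.95 and miR-77-5p (0.935). miR-84-5p was closest to miR-237-5p, of the lin-4 family (0.963), then to miR-241-5p (0.960), miR-48-5p (0.95), miR-241-3p (0.932) and miR-84-3p (0.932). For miR-241-5p the order was miR-48-5p at 0.990, miR-48-3p at 0.973, its own -3p strand at 0.970, miR-84-5p at 0.960, and last miR-237-5p at 0.934. All libraries share the time axis, so any strand that rises with development correlates.

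Of 11 other strands of developmental timing miRNAs (both strands of let-7, miR-794, miR-795, lin-4 and miR-237, and miR-793), 10 were tested. At 16 to 19 h, 2 were higher in lin-28(0) (let-7-5p and let-7-3p), beside 6 of 246 strands (2.44%). Lower were 3 (miR-795-5p, lin-4-3p and miR-237-5p), beside 11 of 246 strands (4.47%), 5 of which were sisters. The median over the 10 was -0.25, beside 0.01 over all tested strands. miR-237-5p fell by 1.37 on the log2 scale (SE 0.23, edgeR adjusted p = 2.5e-05) against 0.47 for the fall of miR-795-5p (SE 0.13, edgeR adjusted p = 0.00785). lin-4-5p, the guide that targets lin-14 and lin-28, stood at 0.01 (adjusted p = 0.992).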

How the data were processed

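Counts per miRNA strand were deposited by the authors, with a second table of log2 values that was recovered from the counts by scaling to the mean library total and adding 8, and was not used further. Per the study's methods, adapters were trimmed with QuasR, reads were aligned with Bowtie to ce10 and counted on miRBase strands by the position of their 5′ end. Several sequencing reactions and more than one library kit were used, and which entered the counts is not stated. No columns were left out. Counts were tested with edgeR 4.0.16 (R 4.3.3; TMM and totals over all strands), with limma 3.58.1 and DESeq2 1.42.0 as alternatives, and the test was checked on simulated counts. Permutations used 100000 sign flips over the hours (numpy 2.4.6), on log2(CPM + 1). Profiles were aligned on grids of 0.25 h and 0.01. Reported strands were the 6 sisters, a list of 11 related strands by counts, and the 5 nearest profiles of each -5p sister. The members, though taken by name, and the lists were chosen with earlier results of these data known. No pair of libraries agreed within sampling noise. The genotypes share no replicate beyond the sampling hour, which was fitted as a block.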

Additional observations from a re-analysis of the deposited data

Results flagged for a closer look

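The step into 16 to 19 h differed between genotypes in the direct edgeR test for miR-84-5p (-0.71 on the log2 scale, lin-28(0) minus WT) and for miR-241-5p (-1.29). Of 15 alternatives, 8 lost the call of miR-84-5p and 9 that of miR-241-5p. The 9 h rhythm also differed, with an amplitude of the difference of 0.77 for miR-48-5p, 1.42 for miR-48-3p, 0.94 for miR-84-3p and 0.97 for miR-241-5p. With a period of 10 h, of these only miR-84-3p still passed, and with 8 h only miR-48-5p. Each genotype has 1 library per hour, and no technical or biological cause was tested.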

How the results depend on the processing

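Of the 6 sisters' differences at 16 to 19 h, miR-48-5p no longer passed with total counts (-1.09), limma (-1.04), 4 spline components (-1.07), with lin-28(0) left out at 1 to 3 h (-1.11) or without hour 0 (-1.13). miR-241-3p no longer passed with total counts (-1.55), limma (-1.60), no count minimum (-1.61), 4 components (-1.05), without those libraries (-1.52) or without hour 0 (-1.60). With 4 components miR-84-5p (-0.70), miR-84-3p (-0.59) and miR-241-5p (-0.88) did not pass, nor did miR-241-5p with limma (-1.05). With the replicate block, the sampling hour as a pair, miR-84-3p did not pass (-1.01). miR-48-3p passed with 12 components (-1.02).

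Scaling time by the tempo factor gave -0.0207 for miR-48-5p, -0.0623 for miR-84-5p, -0.0520 for miR-84-3p, -0.10 for miR-241-5p and -0.46 for miR-241-3p. With lin-28(0) set 2 h earlier these were 0.0281, 0.0108 and 0.0330 for the first 3, with the sign turned, and -0.0518 and -0.38 for the miR-241 strands, none past the threshold. With lin-28(0) set 2 h later miR-48-3p passed at -3.17, and miR-48-5p at 8 to 11 h turned to -1.47. The main fit of miR-48-5p in that window was above 0, unlike its observed mean difference of -0.30. Averaged over the hours, miR-48-5p changed sign and passed as higher in lin-28(0), at 0.39 with tempo scaling and 0.58 with the earlier hours. With the later hours it passed at -1.12, as did miR-84-5p (-0.65), miR-84-3p (-0.48) and miR-241-3p (-1.46). The average of miR-84-5p also passed with DESeq2, its size factors or TMM over tested strands (-0.27 each), 12 components (-0.21) or without hour 0 (-0.24), and that of miR-241-3p with 12 components (-0.48). Among steps, miR-84-3p in WT into 8 to 11 h turned to 0.59 with 12 components. The observed WT mean of miR-84-3p rose 1.78-fold over that step, which the main fit did not follow. Of the step differences, miR-48-5p into 4 to 7 h turned to 2.20 with the earlier hours, and those of miR-48-3p and miR-241-3p into 12 to 15 h to 2.23 and 1.55 with the later ones.

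Counts of strands called moved as follows. The average, 56, became 34 with lin-28(0) left out at 1 to 3 h, 91 with lin-28(0) 2 h later and 30 with the replicate block. Any difference over time, 69, became 32 with 4 components and 34 without those libraries. The window of 16 to 19 h, 17, became 6 with 4 components, 7 with tempo scaling, 9 with lin-28(0) 2 h earlier and 45 with it 2 h later. The last window, 23, became 40 with 12 components, 12 with 4 and 45 with lin-28(0) 2 h later. The step of lin-28(0) into the last window, 27, became 50 with the later hours. The step difference into 16 to 19 h, 5 in edgeR, became 3 with total counts and with DESeq2, 2 with no count minimum and with TMM over tested strands, 27 with 12 components, 1 without the libraries of 1 to 3 h, 43 with the later hours and 14 over the hours of the tempo setting unscaled. It became 0 with limma (18 strands at an unadjusted p under 0.05), with 4 components (12 in edgeR), with tempo scaling (19 in edgeR) and with the earlier hours (5 in edgeR). The rhythm count became 2 in lin-28(0) with a period of 8 h (46 with 9 h) and 19 in WT with 10 h (54 with 9 h), and that of the rhythm difference, 35, became 15 with 8 h and 6 with 10 h. Tests of the hour windows that an alternative covered only in part were not made. The cause of these changes was not tested, other than that the shifts and the tempo factor change which hours are compared. Low counts limit miR-241-5p and miR-48-3p before 8 h.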
